A study of Caenorhabditis elegans with 8 samples.

Results

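The genes described here encode the enzymes that break down, rebuild and store glucose in the nematode *Caenorhabditis elegans*. They were taken as a list of 38 gene IDs covering glycolysis, lactate and alcohol dehydrogenases, the pyruvate dehydrogenase complex, gluconeogenesis with the glyoxylate shunt, glycogen, trehalose and glycerol. Of these, 37 matched a row of the deposited table, which holds 45461 gene features. The ID W05G3.1, listed among the gluconeogenesis genes, matched no row and was not analysed here. Of the 37 genes, 36 had enough reads to be tested, and the exception was *sodh-2* (K12G11.4), an alcohol dehydrogenase gene.

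Polyadenylated RNA of whole worms was sequenced from 4 strains with 2 biological replicates each, using 150 very young adults per sample that had been kept at 22.5°C on OP50 bacteria and not starved. The strains were the mutant *egl-9(sa307)* (strain JT307), the double mutant *egl-9(sa307) hif-1(ia4)* (CB6088), the double mutant *cyp-36A1(gk824636); egl-9(sa307)* (MT22836) and the wild type N2, and the 3 mutant strains share the same *egl-9* allele. Alleles are written as lf for loss of function below, so that the double mutants are *egl-9(lf) hif-1(lf)* and then *cyp-36A1(lf); egl-9(lf)*. Each genotype was represented by 1 strain, so a difference between genotypes cannot be told apart from other differences between strains, and neither the *hif-1* nor the *cyp-36A1* mutation was sequenced without the *egl-9* mutation. Because whole animals were lysed, fewer cells of a type and less RNA per cell cannot be told apart.

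EGL-9 is the prolyl hydroxylase that marks the hypoxia-inducible transcription factor HIF-1 for degradation when oxygen is present, and without it HIF-1 stays active in normal air. In mammals, HIF is known to raise transcription of glycolytic enzyme genes and of lactate dehydrogenase. Glycolysis turns glucose into pyruvate, which enters mitochondria through the pyruvate dehydrogenase complex, while gluconeogenesis runs the reversible steps backward and replaces the irreversible ones. Worms also run the glyoxylate shunt, which lets them make sugar from fat, and they store sugar as glycogen and as the disaccharide trehalose.

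Levels are given as CPM (a count as a share of the scaled library total) when libraries are compared and as FPKM (reads scaled by gene length and library total) when genes are compared. A gene was called higher or lower when its p in the quasi-likelihood test of edgeR, adjusted over all 14311 features tested by the method of Benjamini and Hochberg, was under 0.05. Fold changes are on the log2 scale, where 1 is a doubling, and ± beside them is the standard error with n = 2 libraries per strain. Library totals lay between 11925027 and 22269111 expected counts, both in the wild type. The targeted genes were measured first. *hif-1* had 45.8 and 43.0 CPM in *egl-9(lf) hif-1(lf)* against 161 and 142 CPM in *egl-9(lf)*. *egl-9* itself had 87.3 and 100.5 CPM in *egl-9(lf)* against 27.4 and 26.0 CPM in the wild type, so its RNA was higher in the mutant and does not by itself check the label. *cyp-36A1* had 4.82 and 19.2 CPM in *cyp-36A1(lf); egl-9(lf)* against 29.3 and 54.7 CPM in *egl-9(lf)*, and its 2 double-mutant libraries lay far apart.

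Per gene length, the genes spanned more than 2 orders of magnitude. In *egl-9(lf)* the highest was *mdh-1* (F46E10.10), the malate dehydrogenase that interconverts malate and oxaloacetate, with 718 and 738 FPKM. It was followed by the enolase gene *enol-1* (T21B10.2) with 616 and 622 FPKM, by *gpd-3* (K10B3.7), a glyceraldehyde-3-phosphate dehydrogenase, with 596 and 579 FPKM, and by the aldolase *aldo-2* (F01F1.12) with 589 and 564 FPKM. The ranges of *gpd-3* and *aldo-2* overlapped, so their order is not separated by the replicates. In the wild type the order began differently, with *aldo-2* (452 and 455 FPKM) above *enol-1* (406 and 426 FPKM) and *mdh-1* (400.4 and 398 FPKM). The lowest tested genes were *gpdh-1*, *pfk-1.2* and *tps-1*, with 1.47 to 2.02 FPKM, 1.37 to 1.56 FPKM and 5.15 to 5.55 FPKM in *egl-9(lf)*. *sodh-2* had too few reads for any comparison: *egl-9(lf)* libraries had counts of 0 and 0, *egl-9(lf) hif-1(lf)* libraries 7 and 3, those of *cyp-36A1(lf); egl-9(lf)* 2 and 0 and those of the wild type 4 and 0.

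**Figure D1:**
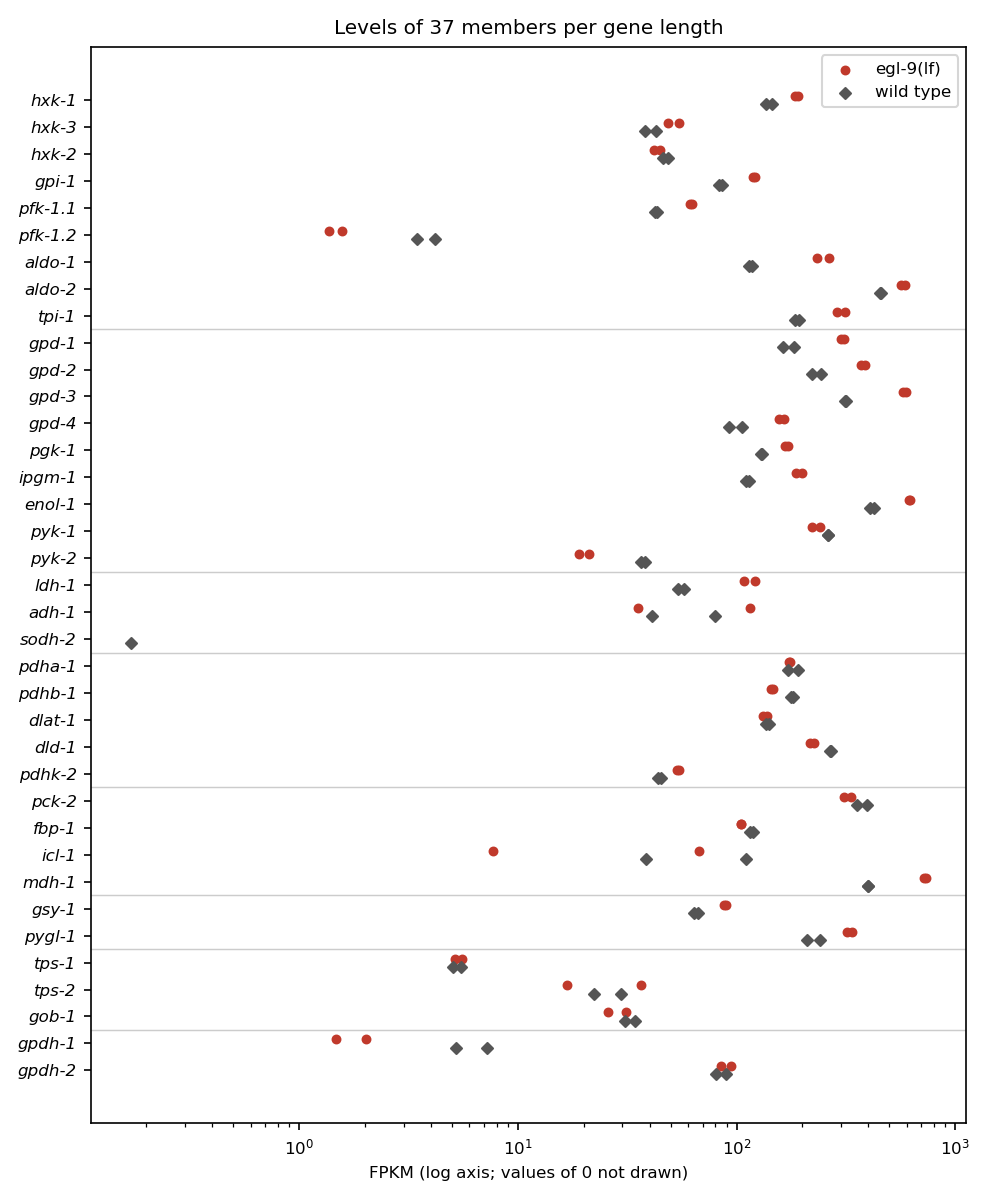
Level per gene length (FPKM, log axis) of each gene in the 2 libraries of *egl-9(lf)* (circles) and of the wild type (diamonds), ordered by pathway step from the hexokinases at the top to glycerol at the bottom. Most glycolytic genes lie above 100 FPKM with the *egl-9(lf)* points to the right, and *pfk-1.2* and *gpdh-1* lie far to the left with the wild-type points to the right.

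Loss of *egl-9* moved many of these genes, and mostly upward. Against the wild type, 14 of 36 tested genes were higher in *egl-9(lf)*, 4 were lower and 18 were not called. Over all features, 7.47% were called higher and 13.6% lower, so the genes of this list were called higher more often and lower about as often as features in general. With 1 library of either strain left out, 8 or 9 of the 36 genes were higher, against 2.49% to 4.30% of all features, with the lowest share without wild-type replicate 1. Scaled by library size alone, 1768 features were higher and 1788 lower, in place of 1069 and 1949, and 16 of the 36 genes were higher and 4 lower. The median log2 fold change was 0.24 over the 36 genes and 0.005 over all features. The changes were modest: none of the genes was called higher by 2-fold or more (3.62% of all features, and 1 gene with DESeq2), although *aldo-1* reached 2.00-fold, and only *pfk-1.2* and *gpdh-1* were called lower by that much (10.2% of all features).

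**Figure D2:**
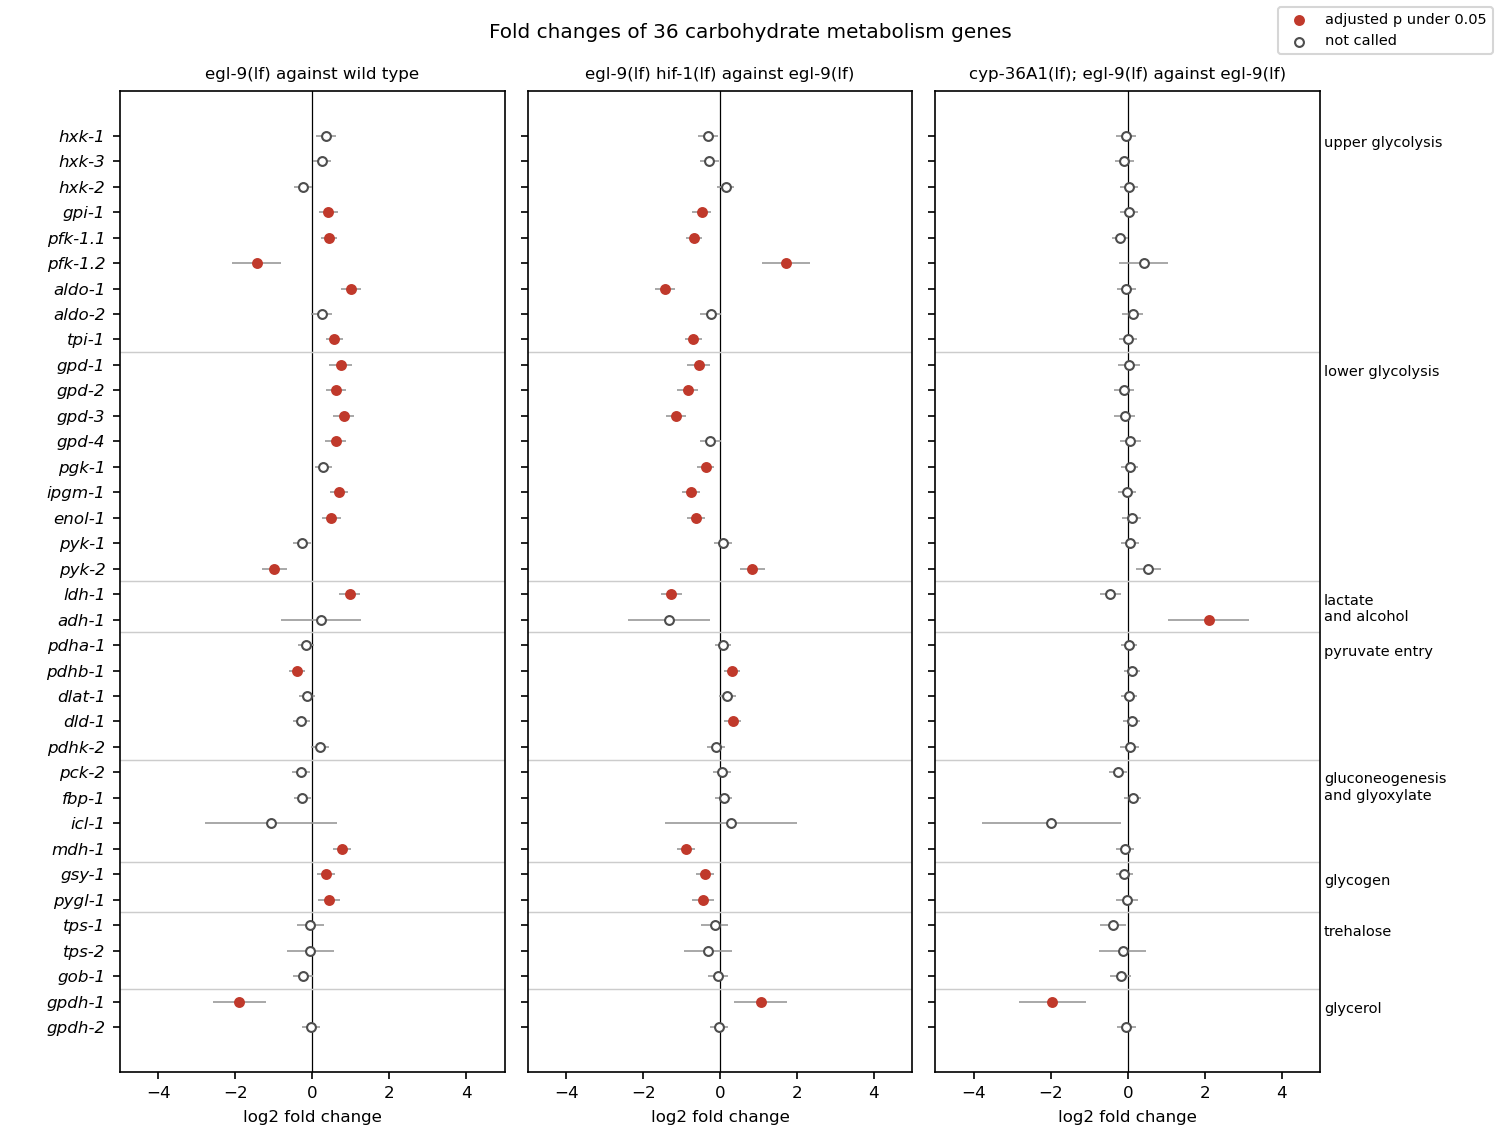
Log2 fold change of each tested gene (points, with 95% confidence intervals as lines) in 3 comparisons: *egl-9(lf)* against the wild type, *egl-9(lf) hif-1(lf)* against *egl-9(lf)*, then *cyp-36A1(lf); egl-9(lf)* against *egl-9(lf)*, by pathway step; filled points have an adjusted p under 0.05. Filled points of glycolysis lie mostly right of 0 in the left panel (10 higher, 2 lower) and left of 0 in the middle panel (2 higher, 10 lower), and no glycolytic point is filled in the right panel.

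Tissue markers also differed between the strains. The summed CPM of 7 sperm genes was 128 to 151 in *egl-9(lf)* against 351 to 374 in the wild type, with 6 of 7 called lower, and 348 to 459 in *egl-9(lf) hif-1(lf)*. The 7 oocyte and eggshell genes summed to 8811 to 8845 CPM in *egl-9(lf)* against 6397 to 7035 CPM in the wild type, with 4 of 7 called higher. Intestinal genes summed to 32717 to 35861 CPM in *egl-9(lf)* against 48822 to 52486 CPM in the wild type, with 1 of 7 higher and 2 lower. Log2 fold changes of these 7 ranged from -0.67 to 2.64, with 3 above 0, so they did not all move with the sum. The 6 epidermal genes summed to 2830 to 3228 CPM against 4707 to 4942 CPM, with 1 of 3 tested called lower by edgeR. Log2 fold changes of these 3 ranged from -0.92 to 3.25, and DESeq2 called 1 lower and 1 higher, the latter by 2-fold or more. None of 6 body-wall muscle and none of 6 neuronal genes was called in either direction by edgeR. DESeq2 also called none of them, and 1 muscle gene had an unadjusted edgeR p under 0.05. No listed marker was at 0 in all 8 libraries. The part of these marker differences in the changes of the carbohydrate genes was not tested.

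In upper glycolysis, where glucose is phosphorylated and split, 4 of 9 genes were higher in *egl-9(lf)*, 1 was lower and 4 were not called. *aldo-1* (T05D4.1), an aldolase that splits fructose-1,6-bisphosphate, had 277 and 317 CPM in *egl-9(lf)* against 146 and 151 CPM in the wild type. Both mutant libraries lay far above both wild-type ones, and the log2 fold change was 1.00 ± 0.12 (adjusted p = 2.32e-04), called under all 18 alternatives tried. Its paralog *aldo-2*, the more abundant aldolase, had 740.4 and 719.9 CPM against 603 and 629 CPM and was not called (0.25 ± 0.12, adjusted p = 0.183). *aldo-1* made up 28.3% and 32.0% of the summed aldolase FPKM in *egl-9(lf)* against 20.2% and 20.6% in the wild type.

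Triose phosphate isomerase *tpi-1* (Y17G7B.7), which interconverts the products of aldolase, rose by 0.58 ± 0.10 with 323 and 351 CPM in *egl-9(lf)* against 230.2 and 222 CPM in the wild type (edgeR adjusted p = 0.00274). The phosphofructokinase *pfk-1.1* (Y71H10A.1), which catalyses the committed step, rose by 0.44 ± 0.10 (adjusted p = 0.00765), and the glucose-6-phosphate isomerase *gpi-1* (Y87G2A.8) rose by 0.42 ± 0.11 (adjusted p = 0.0185). Neither gene was called when either replicate of either strain was left out. With 1 library left out the estimates changed little, at 0.42 to 0.46 for *pfk-1.1* and 0.39 to 0.45 for *gpi-1*. The 3 hexokinase genes, which carry out the entry step, were not called, although each had an unadjusted edgeR p under 0.05. Their log2 fold changes were 0.35 ± 0.12 for *hxk-1* (F14B4.2), 0.25 ± 0.11 for *hxk-3* (Y77E11A.1) and -0.24 ± 0.10 for *hxk-2* (H25P06.1), with adjusted p of 0.0617, 0.135 and 0.119.

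The other phosphofructokinase gene, *pfk-1.2* (C50F4.2), moved the other way. It had 3.61 and 3.21 CPM in *egl-9(lf)* against 8.48 and 10.3 CPM in the wild type, with no overlap, and fell by 1.45 ± 0.28 on the log2 scale (edgeR adjusted p = 0.00486). In *egl-9(lf) hif-1(lf)* it had 8.85 and 13.6 CPM, with 3.73 and 5.42 CPM in *cyp-36A1(lf); egl-9(lf)*. It is the minor isoform, giving 2.48% and 2.15% of the summed phosphofructokinase FPKM in *egl-9(lf)* against 7.49% and 8.79% in the wild type. The summed level of the sperm markers moved with it across the strains, with 128 to 151 CPM in *egl-9(lf)*, 348 to 459 CPM in *egl-9(lf) hif-1(lf)*, 172 to 200.1 CPM in *cyp-36A1(lf); egl-9(lf)* and 351 to 374 CPM in the wild type, and its part in the result was not tested.

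In lower glycolysis, from glyceraldehyde-3-phosphate to pyruvate, 6 of 9 genes were higher in *egl-9(lf)*, 1 was lower and 2 were not called. All 4 glyceraldehyde-3-phosphate dehydrogenase genes were among the 6. *gpd-3* had 660 and 649 CPM in *egl-9(lf)* against 374 and 371.1 CPM in the wild type (0.81 ± 0.12, edgeR adjusted p = 9.98e-04). *gpd-1* (T09F3.3) rose by 0.73 ± 0.13, *gpd-2* (K10B3.8) by 0.61 ± 0.12 and *gpd-4* (F33H1.2) by 0.61 ± 0.12, with adjusted p of 0.00294, 0.00462 and 0.0059. The calls of *gpd-2* and *gpd-4* were lost without wild-type replicate 2 (adjusted p = 0.0608) and without wild-type replicate 1 (adjusted p = 0.0805). Reads can be divided uncertainly between near-identical members of this family, so the pairs were also summed: *gpd-1* with *gpd-4* rose by 0.69 ± 0.13 and *gpd-2* with *gpd-3* by 0.73 ± 0.12 (adjusted p = 0.00394 and 0.0021).

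Of the steps below, the phosphoglycerate mutase *ipgm-1* (F57B10.3) had 303 and 329 CPM in *egl-9(lf)* against 191 and 200.3 CPM in the wild type (0.69 ± 0.11, edgeR adjusted p = 0.00123). *enol-1*, the enolase, had 873 and 896 CPM against 612 and 642 CPM (0.50 ± 0.11, adjusted p = 0.0092). The *enol-1* call was lost without either replicate of either strain, with adjusted p of 0.0574 to 0.0951. Phosphoglycerate kinase, *pgk-1* (T03F1.3), which makes ATP, had 215 and 226 CPM against 178 and 183 CPM and missed the threshold (0.29 ± 0.10, adjusted p = 0.0722).

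RNA for the last step, catalysed by pyruvate kinase, did not follow that of the steps above it. *pyk-2* (ZK593.1) had 29.1 and 33.2 CPM in *egl-9(lf)* against 60.1 and 63.4 CPM in the wild type, about 2-fold lower in both libraries. Its log2 fold change was -0.99 ± 0.15 (edgeR adjusted p = 9.72e-04), called under all 18 alternatives. *pyk-1* (F25H5.3), which gave most of the pyruvate kinase RNA, had 450 and 493 CPM against 561 and 568 CPM and was not called (-0.26 ± 0.11, adjusted p = 0.112). *pyk-2* shares 204 exonic bases with an antisense gene in the Ensembl WBcel235 annotation, and whether reads were counted by strand was not given in the sources used here.

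**Figure D3:**
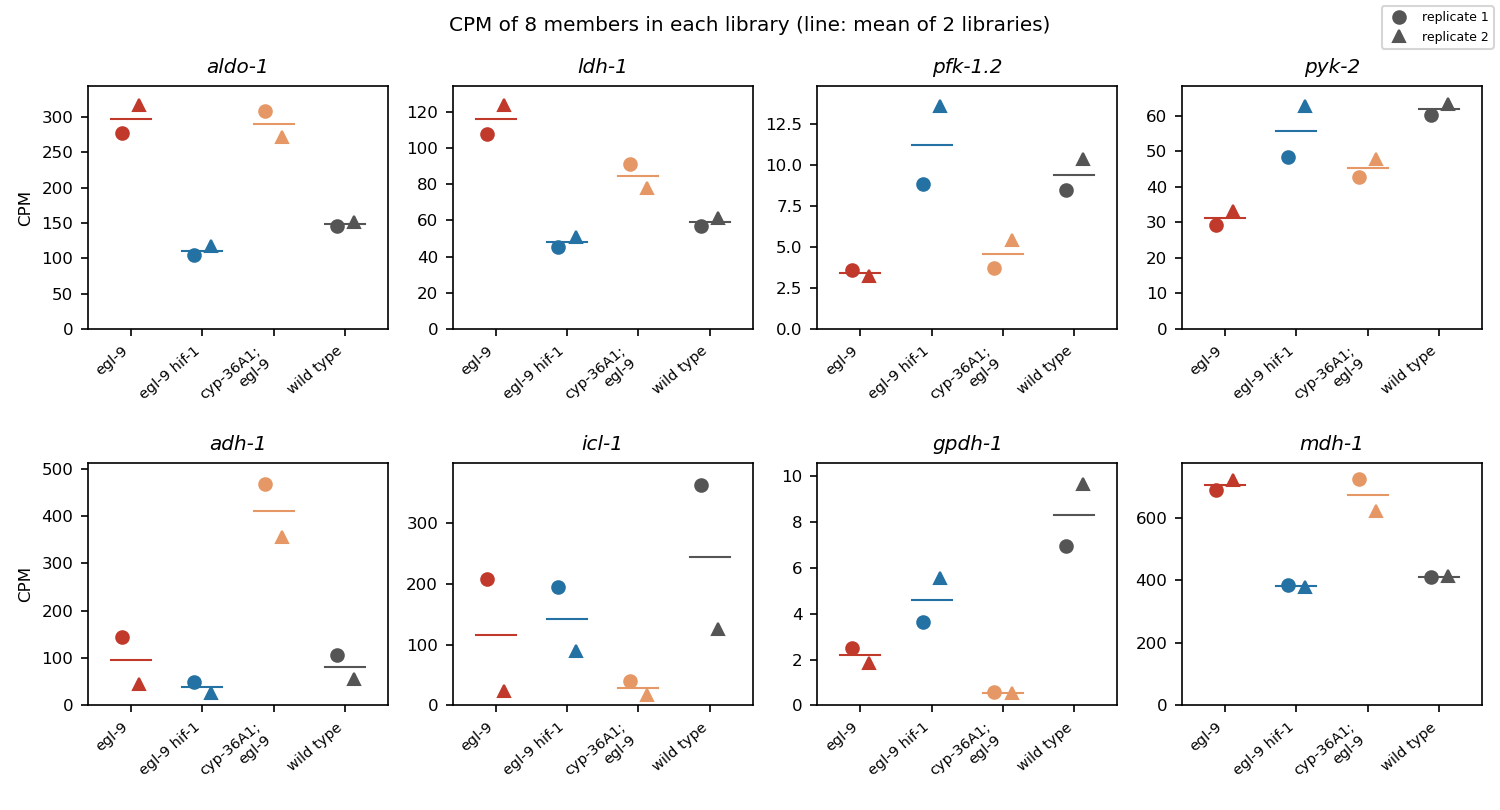
CPM of 8 genes in each library (linear axes from 0; circles are replicate 1, triangles replicate 2, lines the mean of 2 libraries), with the mutant strains to the left of the wild type. *aldo-1* and *mdh-1* are high with *egl-9(lf)* alone or with *cyp-36A1(lf)* added and low in the other strains. *ldh-1* is highest in *egl-9(lf)*, and with *cyp-36A1(lf)* added it lies between *egl-9(lf)* and the wild type. *pfk-1.2* and *pyk-2* are low in *egl-9(lf)*, and *adh-1* and *icl-1* have replicates far apart.

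Lactate dehydrogenase, *ldh-1* (F13D12.2), which reduces pyruvate to lactate and restores the cofactor that glycolysis needs, had 108 and 124 CPM in *egl-9(lf)* against 56.8 and 61.2 CPM in the wild type. The libraries did not overlap, and the log2 fold change of 0.97 ± 0.12 (edgeR adjusted p = 3.97e-04) was called under all 18 alternatives. The alcohol dehydrogenase *adh-1* (K12G11.3, also named *sodh-1*) had 145 and 45.3 CPM in *egl-9(lf)* against 107 and 55.2 CPM in the wild type. Its replicates spanned more than the strains differed (0.23 ± 0.47, adjusted p = 0.764), and the estimate was -0.85 without *egl-9(lf)* replicate 1 and -0.17 without wild-type replicate 2.

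Among the 5 pyruvate dehydrogenase genes, which feed carbon from glycolysis into the citric acid cycle, 1 was called lower in *egl-9(lf)* by edgeR. At an unadjusted edgeR p under 0.05, and also with DESeq2, 2 were lower. None was higher by any of these. *pdhb-1* (C04C3.3), the beta subunit of the first enzyme, had 166 and 168 CPM in *egl-9(lf)* against 223 and 219 CPM in the wild type (-0.40 ± 0.10, adjusted p = 0.0124). That call was lost without either replicate of either strain, with adjusted p of 0.0761 to 0.119. The log2 fold changes of the other 4 were -0.29 for *dld-1* (LLC1.3), the dihydrolipoamide dehydrogenase, -0.16 for the alpha subunit *pdha-1* (T05H10.6), -0.15 for the acetyltransferase *dlat-1* (F23B12.5) and 0.20 for *pdhk-2* (ZK370.5), the kinase that switches the complex off.

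In gluconeogenesis and the glyoxylate shunt, *mdh-1* was the 1 of 4 tested genes called in *egl-9(lf)* by edgeR. It had 689 and 718 CPM in *egl-9(lf)* against 409 and 413 CPM in the wild type (0.78 ± 0.11, edgeR adjusted p = 7.88e-04), and the call held under all 18 alternatives. *pck-2* and *fbp-1* missed the adjusted threshold, with unadjusted edgeR p of 0.0165 and 0.0244. DESeq2 called 1 gene of this step lower besides 1 higher. *pck-2* (R11A5.4), a phosphoenolpyruvate carboxykinase, had 682 and 651 CPM against 861 and 782 CPM (-0.30 ± 0.11, adjusted p = 0.0685). Fructose-1,6-bisphosphatase, *fbp-1* (K07A3.1), which reverses the phosphofructokinase step, had 122 and 124 CPM against 149 and 145 CPM (-0.26 ± 0.10, adjusted p = 0.0891).

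*icl-1* (C05E4.9), the bifunctional enzyme of the glyoxylate shunt, differed more between replicates than any other tested gene of the list. It had 208 and 24.0 CPM in *egl-9(lf)* against 363 and 126 CPM in the wild type, and replicate 1 was the higher one in all 4 strains. Its log2 fold change was -1.08 ± 0.78 and not called (edgeR adjusted p = 0.355). With the replicate number as a paired block it was -1.39 with adjusted p = 0.00338, and without *egl-9(lf)* replicate 1 it was -3.36 with adjusted p = 0.00803. Without wild-type replicate 1 the estimate was -0.11 (adjusted p = 0.955), without *egl-9(lf)* replicate 2 it was -0.24 (adjusted p = 0.82), and without wild-type replicate 2 it was -1.64 (adjusted p = 0.259).

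The phosphoenolpyruvate carboxykinase gene *pck-1* (W05G11.6) is not on the list of IDs, and it was added after its values had been seen because RefSeq gives that name to an enzyme of the step for which W05G3.1 had been listed. It had 1243 and 1301 CPM in *egl-9(lf)* against 91.0 and 93.7 CPM in the wild type, 13.8-fold higher (3.78 ± 0.12, edgeR adjusted p = 2.04e-08). In *egl-9(lf) hif-1(lf)* it had 39.8 and 40.2 CPM, lower than in *egl-9(lf)* (-4.99 ± 0.13, adjusted p = 5.68e-09) and also lower than in the wild type (-1.21 ± 0.12, adjusted p = 8.92e-04). In *cyp-36A1(lf); egl-9(lf)* it had 1151 and 990.3 CPM and was not called against *egl-9(lf)* (-0.25 ± 0.11, adjusted p = 0.518). Its paralog *pck-3* (H04M03.1) moved the other way, with 6.55 and 6.73 CPM in *egl-9(lf)* against 16.6 and 16.7 CPM in the wild type (-1.33 ± 0.23, adjusted p = 0.0024).

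Both glycogen genes were higher in *egl-9(lf)*. The glycogen phosphorylase *pygl-1* (T22F3.3), which releases glucose-1-phosphate from glycogen, had 946 and 920 CPM in *egl-9(lf)* against 634 and 736 CPM in the wild type (0.45 ± 0.13, edgeR adjusted p = 0.0326). The glycogen synthase *gsy-1* (Y46G5A.31), which works in the opposite direction, had 210 and 209 CPM against 160.3 and 167 CPM (0.36 ± 0.10, adjusted p = 0.033). RNA of both genes, for making and for breaking down the store, was thus higher, by a similar amount. Without either replicate of either strain neither gene was called, with adjusted p of 0.0711 to 0.253 for *pygl-1* and 0.143 to 0.22 for *gsy-1*.

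None of the 3 trehalose genes was called in *egl-9(lf)* by edgeR, at an unadjusted p under 0.05 or with DESeq2. The trehalose-6-phosphate synthases *tps-1* (ZK54.2) and *tps-2* (F19H8.1) and the phosphatase *gob-1* (H13N06.3) had log2 fold changes of -0.05 ± 0.16, -0.05 ± 0.28 and -0.24 ± 0.12. *tps-2* had 136 and 63.6 CPM in *egl-9(lf)* against 118 and 88.4 CPM in the wild type, and its replicate 1 was higher in all 4 strains.

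The glycerol-3-phosphate dehydrogenase genes link the middle of glycolysis to glycerol. *gpdh-1* (F47G4.3), known in worms for its induction by high salt, had 2.52 and 1.87 CPM in *egl-9(lf)* against 6.98 and 9.65 CPM in the wild type. It fell by 1.90 ± 0.31 (edgeR adjusted p = 0.00178), the largest called decrease among the tested genes, and was called under all 18 alternatives. *gpdh-2* (K11H3.1), which was far more abundant, had 117 and 107 CPM against 120 and 108 CPM (-0.03 ± 0.11, adjusted p = 0.888).

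The comparison of *egl-9(lf) hif-1(lf)* with *egl-9(lf)* asks which of these levels depend on *hif-1* when *egl-9* is absent. It shares the *egl-9(lf)* libraries with the comparison above, so the 2 sets of values are not independent. Of 36 genes, 14 were lower in *egl-9(lf) hif-1(lf)*, 5 were higher and 17 were not called, against 6.39% of all features called lower and 13.5% called higher. Scaled by library size alone, 1769 features were higher and 1340 lower, in place of 1935 and 915. The median log2 fold change was -0.27 over the 36 genes and -0.01 over all features.

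In glycolysis, *egl-9(lf) hif-1(lf)* had 10 of 18 genes lower and 2 higher. *aldo-1* had 105 and 117 CPM in *egl-9(lf) hif-1(lf)* against 277 and 317 CPM in *egl-9(lf)*, and its -1.42 ± 0.12 was the largest called decrease of the list (edgeR adjusted p = 1.94e-05). *gpd-3* had 281 and 309 CPM against 660 and 649 CPM (-1.15 ± 0.12, adjusted p = 1.22e-04). The remaining 8 lower genes were *gpd-2* (-0.84), *ipgm-1* (-0.75), *tpi-1* (-0.70), *pfk-1.1* (-0.68), *enol-1* (-0.62), *gpd-1* (-0.56), *gpi-1* (-0.48) and *pgk-1* (-0.37). *gpd-4* was not called (-0.26 ± 0.12, adjusted p = 0.188), although its sum with *gpd-1* was lower by 0.45 on the log2 scale (-0.45 ± 0.13, adjusted p = 0.0336).

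Several of the smaller changes were not called in some fits with 1 library left out, although their estimates kept the direction. Over these fits the log2 fold change was -0.41 to -0.34 for *pgk-1*, -0.71 to -0.42 for *gpd-1* and -0.61 to -0.37 for *gpi-1*. The *pgk-1* call was lost without either wild-type replicate, either *egl-9(lf)* replicate or *egl-9(lf) hif-1(lf)* replicate 2 (adjusted p = 0.0548 to 0.177). The *gpd-1* call was lost without *egl-9(lf)* replicate 2 (adjusted p = 0.0681) or *egl-9(lf) hif-1(lf)* replicate 2 (adjusted p = 0.0773), and the *gpi-1* call without *egl-9(lf)* replicate 2 (adjusted p = 0.0686). The other 7 glycolytic genes named as lower were called in edgeR with any library left out.

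The 2 glycolytic genes called higher were *pfk-1.2* and *pyk-2*. *pfk-1.2* rose by 1.71 ± 0.28 (edgeR adjusted p = 0.00161). *pyk-2* had 48.3 and 62.8 CPM in *egl-9(lf) hif-1(lf)* against 29.1 and 33.2 CPM in *egl-9(lf)* (0.84 ± 0.15, adjusted p = 0.00215). Shares within a step shifted accordingly: *aldo-1* gave 14.5% and 17.4% of aldolase FPKM in *egl-9(lf) hif-1(lf)* against 28.3% and 32.0% in *egl-9(lf)*, and *pyk-2* gave 11.6% and 13.7% of pyruvate kinase FPKM against 7.92% and 8.10%.

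Outside glycolysis, *ldh-1* had 45.2 and 51.1 CPM in *egl-9(lf) hif-1(lf)* against 108 and 124 CPM in *egl-9(lf)* (-1.27 ± 0.12, edgeR adjusted p = 7.17e-05). *mdh-1* had 384 and 379 CPM against 689 and 718 CPM (-0.88 ± 0.11, adjusted p = 3.13e-04). Both genes were called under all 18 alternatives. *pygl-1* and *gsy-1* were lower by 0.43 and 0.39 on the log2 scale (-0.43 ± 0.13 and -0.39 ± 0.10, adjusted p = 0.0391 and 0.0222), each called in 12 of 18 alternatives. Both were lost without either wild-type replicate, either *egl-9(lf)* replicate or *egl-9(lf) hif-1(lf)* replicate 2, with adjusted p of 0.0589 to 0.213 for *pygl-1* and 0.0545 to 0.131 for *gsy-1*.

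Of the pyruvate dehydrogenase genes, *dld-1* and *pdhb-1* rose without *hif-1*, by 0.33 ± 0.10 and 0.32 ± 0.10 (edgeR adjusted p = 0.0383 and 0.0393). Each was called in 9 of 18 alternatives, and with the replicate number as a paired block both had an adjusted p of 0.0513. *gpdh-1* had 3.63 and 5.56 CPM against 2.52 and 1.87 CPM (1.06 ± 0.31, adjusted p = 0.0372) and was called in 8 of 18 alternatives. Leaving out 1 library lost these calls in most cases, among them *egl-9(lf)* replicate 1 (adjusted p = 0.276 for *dld-1*, 0.239 for *pdhb-1* and 0.0649 for *gpdh-1*) and *egl-9(lf) hif-1(lf)* replicate 2 (adjusted p = 0.116, 0.0972 and 0.254). *adh-1* had 50.3 and 26.1 CPM against 145 and 45.3 CPM and was not called (-1.33 ± 0.48, adjusted p = 0.0819), but with the paired block its adjusted p was 4.48e-04, and without *egl-9(lf)* replicate 2 it was 0.00346. Without *egl-9(lf)* replicate 1 the *adh-1* estimate was -0.25 (adjusted p = 0.769).

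**Figure D4:**
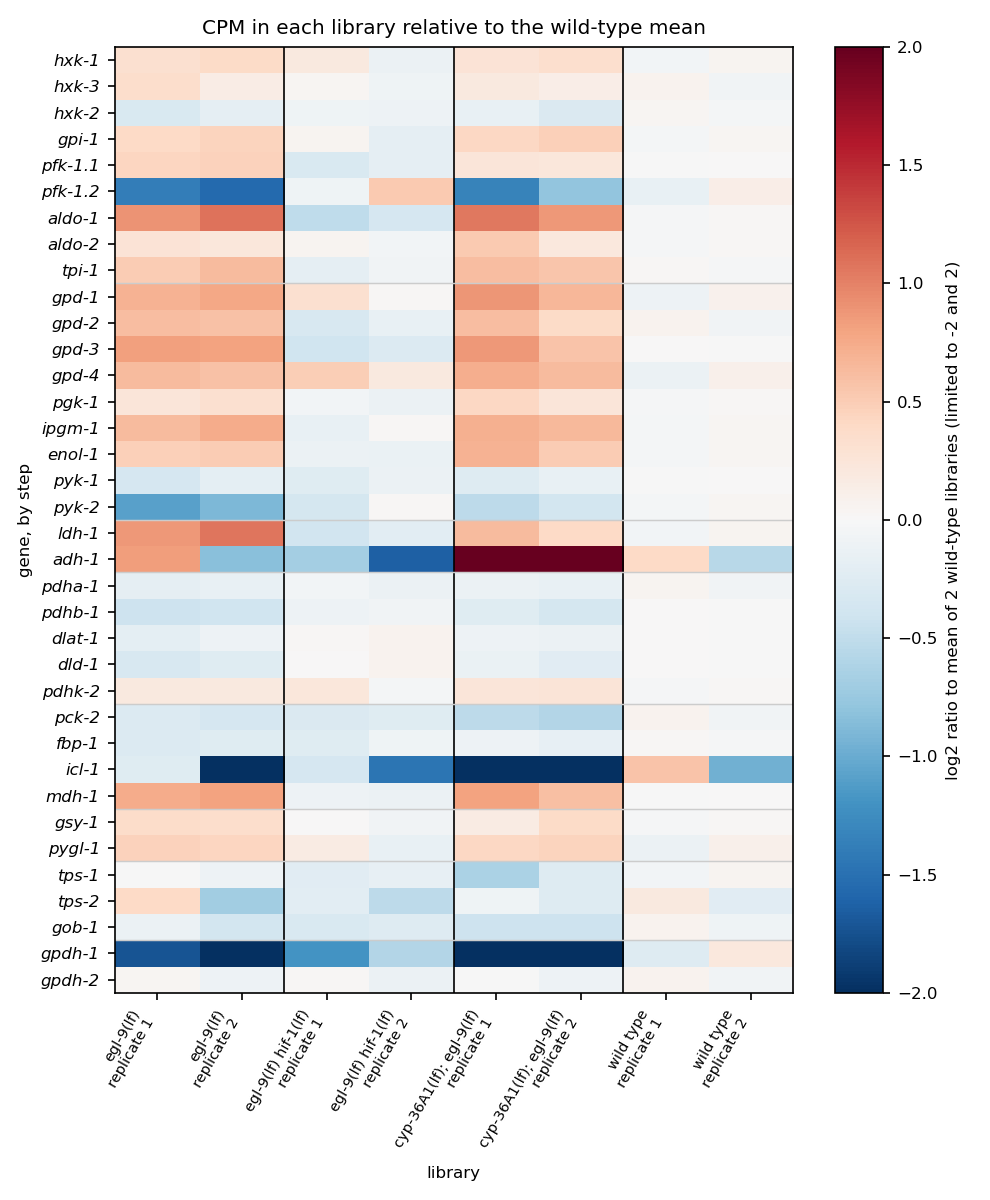
CPM of each tested gene in each library as a log2 ratio to the mean of the 2 wild-type libraries (red higher, blue lower, colours limited to -2 and 2), rows by pathway step and columns by strain and replicate. Most glycolytic rows are red in the *egl-9(lf)* columns, red also with *cyp-36A1(lf)* added, and pale in *egl-9(lf) hif-1(lf)*, and *adh-1* is darkest red in *cyp-36A1(lf); egl-9(lf)*.

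Set directly against the wild type, *egl-9(lf) hif-1(lf)* had none of the 36 genes called higher or lower by edgeR, where 0.126% of all features were called higher and 0.189% lower. At an unadjusted p under 0.05, 1 gene was higher and 8 were lower, beside 518 of 14311 features in either direction. DESeq2 called none of the genes. The median log2 fold change was -0.10 over the 36 genes and 0.01 over all features, with 9 of the 36 above 0. Few features were called between these strains, so only the count of 0 calls is close to the background. Log2 fold changes of the 18 glycolytic genes lay between -0.42 for *aldo-1* and 0.35 for *gpd-4*. *aldo-1* had 105 and 117 CPM in *egl-9(lf) hif-1(lf)* against 146 and 151 CPM in the wild type, so its libraries did not overlap although the adjusted p was 0.558. Outside glycolysis the estimates reached -1.10 for *adh-1* and -0.84 for *gpdh-1*, and with the paired block *adh-1* was called lower (-1.08, adjusted p = 0.0263).

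The comparison of *cyp-36A1(lf); egl-9(lf)* with *egl-9(lf)* asks which levels depend on the cytochrome P450 gene *cyp-36A1*. Of 36 genes, 1 was higher and 1 was lower, against 1.03% of all features called higher and 1.3% called lower, and 34 were not called. The median log2 fold change of the 36 genes was 0.00. None of the 18 glycolytic genes was called by edgeR or DESeq2, 1 of them, *pyk-2*, was higher at an unadjusted p under 0.05, and none was lower at that p. Their log2 fold changes lay between -0.21 for *pfk-1.1* and 0.54 for *pyk-2*, and the 95% confidence intervals of all 18 lay between -0.41 and 1.06.

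*aldo-1* had 309 and 272 CPM in *cyp-36A1(lf); egl-9(lf)* against 277 and 317 CPM in *egl-9(lf)*, so the libraries interleaved (-0.03 ± 0.11). *mdh-1* had 722 and 621 CPM against 689 and 718 CPM, and *gpd-3* had 680.2 and 556 CPM against 660 and 649 CPM. *pyk-2* had 42.8 and 47.8 CPM against 29.1 and 33.2 CPM, without overlap, and *ldh-1* had 91.1 and 77.9 CPM against 108 and 124 CPM, also without overlap. Neither passed the adjustment: 0.54 with a 95% interval of 0.22 to 0.86 for *pyk-2* (adjusted p = 0.106), and -0.45 with an interval of -0.72 to -0.19 for *ldh-1* (adjusted p = 0.103). With the replicate number as a paired block, however, *pyk-2* was called (0.54, edgeR adjusted p = 0.0157) and *ldh-1* was not (-0.45, adjusted p = 0.0521). With no filter on low counts both were called, and *ldh-1* was also called with library size alone.

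The higher gene was *adh-1*, with 466 and 356 CPM in *cyp-36A1(lf); egl-9(lf)* against 145 and 45.3 CPM in *egl-9(lf)*. Both double-mutant libraries lay above all other libraries of the series. The log2 fold change was 2.10 ± 0.48, and the adjusted p of 0.0499 was at the threshold. It was called in 6 of 18 alternatives, was not called by DESeq2, and had an adjusted p of 0.0501 when reads of *adh-1* and *sodh-2* were summed. With the replicate number as a paired block the fold change was 2.30 with adjusted p = 4.68e-06. It was not called without *egl-9(lf)* replicate 2 (1.501, adjusted p = 0.0878), either *egl-9(lf) hif-1(lf)* replicate (adjusted p = 0.0913 and 0.0894) or either *cyp-36A1(lf); egl-9(lf)* replicate (adjusted p = 0.315 and 0.107). Reads of *adh-1* and *sodh-2* can be mixed up where the genes overlap, since they share 70 exonic bases on opposite strands.

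The lower gene was *gpdh-1*, with 0.570 and 0.555 CPM in *cyp-36A1(lf); egl-9(lf)* against 2.52 and 1.87 CPM in *egl-9(lf)* (-1.96 ± 0.40, edgeR adjusted p = 0.0266). These levels are low, and the call was lost without *egl-9(lf)* replicate 1 (adjusted p = 0.165) or without replicate 1 or 2 of *cyp-36A1(lf); egl-9(lf)* (adjusted p = 0.199 and 0.12). *gpdh-1* shares 73 exonic bases with *gadr-6* on the opposite strand. *icl-1* had 41.01 and 17.6 CPM against 208 and 24.0 CPM and was not called (-1.98 ± 0.82, adjusted p = 0.445), but with the paired block its fold change was -1.62 with adjusted p = 0.00764. Without *egl-9(lf)* replicate 1 the *icl-1* estimate turned to 0.30, and without *egl-9(lf)* replicate 2 it was -2.82 (adjusted p = 0.018).

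Against the wild type, *cyp-36A1(lf); egl-9(lf)* had 14 genes higher, 6 lower and 16 not called, where 7.62% of all features were called higher and 12.3% lower. Within glycolysis 10 were higher and 2 were lower. *aldo-1* was higher by 0.97 ± 0.12 and *mdh-1* by 0.71 ± 0.11 (edgeR adjusted p = 3.95e-04 and 0.00199), and *ldh-1* by 0.52 ± 0.12 (adjusted p = 0.0151). *pfk-1.2* was lower by 1.04 on the log2 scale (-1.04 ± 0.27, adjusted p = 0.0243), and the *pyk-2* estimate of -0.45 ± 0.14 lay at the threshold (adjusted p = 0.0495) and was called in 8 of 18 alternatives. The *ldh-1* call was lost without either wild-type replicate (adjusted p = 0.148 and 0.073) or *cyp-36A1(lf); egl-9(lf)* replicate 1 (adjusted p = 0.101), and the *pfk-1.2* call without the same libraries (adjusted p = 0.0704, 0.131 and 0.161). *pyk-2* was not called without any 1 of the 6 libraries of these strains and *egl-9(lf)*, with adjusted p of 0.0593 to 0.216. The largest called decreases were those of *gpdh-1* and *icl-1*. *gpdh-1* had 0.570 and 0.555 CPM in *cyp-36A1(lf); egl-9(lf)* against 6.98 and 9.65 CPM in the wild type (-3.86 ± 0.36, adjusted p = 6.43e-05), called under all 18 alternatives.

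*icl-1* had 41.01 and 17.6 CPM in *cyp-36A1(lf); egl-9(lf)* against 363 and 126 CPM in the wild type, so even its wide replicates did not overlap (-3.06 ± 0.84, edgeR adjusted p = 0.0288). The *icl-1* call was lost without wild-type replicate 1 (-2.12, adjusted p = 0.186) and without either *cyp-36A1(lf); egl-9(lf)* replicate (adjusted p = 0.0956 and 0.163). *adh-1* was higher by 2.33 ± 0.48 (adjusted p = 0.00802), and its call was lost without wild-type replicate 2 (1.91, adjusted p = 0.068) or without *cyp-36A1(lf); egl-9(lf)* replicate 1 (adjusted p = 0.0586). *pck-2* and *gob-1* were the remaining lower genes, at -0.55 ± 0.11 and -0.42 ± 0.12 (adjusted p = 0.00566 and 0.0321). The *pck-2* call was lost without wild-type replicate 1 (adjusted p = 0.0715), and the *gob-1* call without either wild-type or either *cyp-36A1(lf); egl-9(lf)* replicate (adjusted p = 0.069 to 0.237). With the paired block *aldo-2* (adjusted p = 0.049) was called higher as well and *tps-1* (adjusted p = 0.0434) lower.

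Genes of neighbouring pathways were measured in the same comparison of *egl-9(lf)* with the wild type. Of 21 citric acid cycle genes, 1 was higher (4.8%) and 3 were lower (14.3%), near the 7.47% and 13.6% of all features. The succinate dehydrogenase subunit *sdha-1* (C03G5.1) rose by 0.48 ± 0.10 (edgeR adjusted p = 0.0057), and the succinyl-CoA ligase genes *suca-1* (F47B10.1) and *sucl-1* (C05G5.4) had log2 fold changes of -0.60 ± 0.11 and -0.50 ± 0.11 (adjusted p = 0.00434 and 0.00895). Of 7 pentose phosphate pathway genes none was called by edgeR, with 1 higher and 1 lower at an unadjusted p under 0.05 and none called by DESeq2.

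Of 5 trehalase genes, whose products cut trehalose back to glucose, 1 was higher, beside 7.47% of all features. *tre-2* (T05A12.2) had 142 and 147 CPM in *egl-9(lf)* against 103 and 94.9 CPM in the wild type (0.55 ± 0.11, edgeR adjusted p = 0.00596). In *cyp-36A1(lf); egl-9(lf)* it had 73.1 and 63.7 CPM, lower than in *egl-9(lf)* by 1.08 on the log2 scale (-1.08 ± 0.11, adjusted p = 3.75e-04). Of 13 other carbohydrate genes found, 3 were higher and 5 were lower in *egl-9(lf)*, beside 7.47% and 13.6% of all features. They were led by *pgph-3* (C53A3.2) at -1.64 ± 0.50, *pck-3* (lower, as given above) and *pgph-2* (F44E7.2) at 1.15 ± 0.15 (edgeR adjusted p = 0.0392, 0.0024 and 4.01e-04). *pgph-3* and *pgph-2* are named as phosphoglycolate phosphatases, and 1 more gene of that list was not matched to the table.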

How the data were processed

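The authors deposited expected counts and FPKM values per gene for each of 8 libraries, made with RSEM 1.2.15 and Bowtie 1.0.1 from single-end reads against the *C. elegans* ce10 genome. The deposited expected counts were not scaled between libraries, and 36.1% of those above 0 were not whole (tolerance 1e-06), so they were rounded. The deposited FPKM values, which the authors scaled by gene length and reads, were used to compare genes and were not tested. RSEM divides reads between near-identical genes, whose values are therefore uncertain. Samples were grouped by the strain and genotype in their labels, with separate populations as biological replicates. Gene names came from RefSeq, which named 44080 of the 45461 features.

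Tests used edgeR 4.0.16 in R 4.3.3: TMM scaling (factors 0.981 to 1.05), filterByExpr, which kept 14311 features, estimateDisp, glmQLFit and glmQLFTest on contrasts of 1 model with a mean per strain, then Benjamini-Hochberg adjustment. Without the filter the prior degrees of freedom were infinite, against 6.62 with it, so each gene's own spread would not have entered. CPM divide a count by the TMM-scaled library total. The scripts were tested on simulated data. With 2 libraries per strain, p-values measure only the spread between these populations. Libraries of the same replicate number deviated together from their strains' means in all 6 pairs of strains (correlations of 0.112 to 0.273 over 14311 genes). The main model nevertheless held no term for the replicate number, and pairing by it entered only in the alternative with the block.

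Alternatives were median-ratio scaling, library size alone, no filter, the legacy=FALSE and robust estimates, the replicate block, an adjusted p under 0.01, only the 2 strains compared, DESeq2 1.42.0 and each library left out, and, chosen after seeing the data, near-identical genes summed. The genes and the lists were chosen with earlier results of these data known. All genes of the list are accounted for. Up to 4 per step have full statistics, those called in *egl-9(lf)* against the wild type first, and at most 3 of each neighbouring pathway. Of the 37 genes, 10 share exonic bases with another gene in the Ensembl WBcel235 annotation.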

Additional observations from a re-analysis of the deposited data

How the results depend on the processing

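Over 68 named gene values and 1219 alternatives, 1043 kept their direction and their side of the threshold, 157 kept the direction but were no longer called, 14 became called and 5 turned in direction. Those that turned were all of *adh-1* and *icl-1* with 1 library left out. *adh-1* in *egl-9(lf)* against the wild type was -0.17 without wild-type replicate 2, and its range with 1 library left out was -0.85 to 0.83. *icl-1* ranged over -3.36 to -0.11 in *egl-9(lf)* against the wild type. It ranged over -2.82 to 0.30 in *cyp-36A1(lf); egl-9(lf)* against *egl-9(lf)*. In *egl-9(lf) hif-1(lf)* against *egl-9(lf)* its range was -0.56 to 2.56, with -0.40 without *egl-9(lf) hif-1(lf)* replicate 1. The cause was not tested for any of these or of the following.

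With each library left out in turn, *egl-9(lf)* against the wild type had 8 to 16 genes higher, in place of 14, and 3 to 6 lower, in place of 4, while 2.49% to 10.4% of all features were higher and 7.39% to 14.4% lower. *egl-9(lf) hif-1(lf)* against *egl-9(lf)* had 2 to 5 higher, in place of 5, beside 7.62% to 14.5% of all features. *cyp-36A1(lf); egl-9(lf)* had 0 to 1 higher and 0 to 2 lower against *egl-9(lf)*, in place of 1 and 1, beside 0.525% to 1.15% and 0.606% to 1.51% of all features. Against the wild type it had 7 to 15 higher and 1 to 7 lower, in place of 14 and 6, beside 1.67% to 9.49% and 5.24% to 13.8%. A strain left with 1 library was assumed to vary like the others.

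In *egl-9(lf)* against the wild type, 7 genes were lower with no filter and 9 with only the 2 strains compared, in place of 4. In *egl-9(lf) hif-1(lf)* against *egl-9(lf)*, 3 were higher with library size alone and with the replicate block, and 2 at an adjusted p under 0.01 and with only the 2 strains compared, in place of 5. The shares of all features called higher were 12.4%, 15.9%, 8.93% and 12.3% in these settings, in the same order. Against the wild type, *egl-9(lf) hif-1(lf)* had 2 genes lower with no filter and 1 with the replicate block, in place of 0. In *cyp-36A1(lf); egl-9(lf)* against *egl-9(lf)*, the count of 1 higher became 0 with median-ratio scaling, library size alone, robust estimation, DESeq2, an adjusted p under 0.01, only the 2 strains compared and near-identical genes summed, and 2 with no filter and with the replicate block. The share of all features called higher was 0.58% to 1.3% where the count became 0. It was 1.8% with no filter and 1.87% with the block. The count of 1 lower became 0 with legacy=FALSE, an adjusted p under 0.01 and only the 2 strains compared, 2 with library size alone and with the replicate block, and 3 with no filter. Of all features, 0.755% to 1.38% were lower where the count became 0. Where it rose, 1.64% to 2.5% were lower. Against the wild type, *cyp-36A1(lf); egl-9(lf)* had 9 genes higher and 2 lower at an adjusted p under 0.01, beside 2.45% and 5.6% of all features. The block changed no other call of the 36 genes than those given beside the results.

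Over all features, *cyp-36A1(lf); egl-9(lf)* against *egl-9(lf)* had 148 higher and 186 lower, 386 and 456 with no filter and 268 and 358 with the replicate block. *egl-9(lf) hif-1(lf)* against the wild type had 18 higher and 27 lower, 77 and 76 with no filter and 34 and 48 with the block. *egl-9(lf)* against the wild type had 1069 higher, 1910 with only the 2 strains compared and, with 1 library left out, 370 to 1538, the lowest without wild-type replicate 1. At an adjusted p under 0.01 this comparison had 462 higher and 1113 lower, *egl-9(lf) hif-1(lf)* had 1278 and 470 against *egl-9(lf)* and 7 and 14 against the wild type, while *cyp-36A1(lf); egl-9(lf)* had 83 and 108 against *egl-9(lf)* and 350 and 801 against the wild type. With 2 libraries per strain, differences of low or variable genes such as *icl-1*, *adh-1* and *gpdh-1* were measured with little precision.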
